A study of Mus musculus with 2 samples.

Results

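The T cell receptor of gamma delta T cells is built from the products of the gamma locus and the delta locus, and 7 genes of these loci were followed through single cells of the mouse colon. They were the delta constant gene Trdc, the delta variable segment Trdv4, the gamma variable segments Trgv2 and Tcrg-V6, and the gamma constant genes Tcrg-C1, Tcrg-C2 and Tcrg-C4. The genes were taken by name from the list of 32285 genes, and all 7 were found. The list held 26 genes named for the gamma and delta loci, so that 19 others were counted beside the 7, and 5 of those 19 had no count in either library. Their usage was compared between T cells positive for Il17a or Il23r, T cells positive for Xcl1 or Klrd1, and innate lymphoid cells.

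The series holds 2 droplet libraries, labelled CD163_NC and CD163_FL, with 1 library per group, of sorted CD45+ cells from the colon lamina propria. Its title names wild-type mice and mice lacking CD163+ macrophages, but no label ties a library to either, so the libraries keep their label names and no genotype is assigned. For the mice, their strain, age and number and the way the deficiency was made were not given in the sources used here. With 1 library per group there is no replicate check and no test. Every difference compares these cells and these libraries, and intervals are exact 95% intervals for counting error only.

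A gamma delta T cell carries a receptor whose gamma and delta chains are each joined from variable and joining segments to a constant gene, with added diversity segments in the delta chain. In mice, the gamma locus holds several constant genes, each with its own nearby variable segments. In a rearranged transcript the constant gene therefore tells which part of the locus was joined. A count of a constant gene or of a variable segment alone does not show that the locus was rearranged. Mouse gamma delta T cells that make interleukin 17 arise early in life and are known for a receptor that pairs the Tcrg-V6 segment with Trdv4, whereas those of the gut epithelium use other gamma segments and carry cytotoxic and natural killer receptor genes. Innate lymphoid cells carry no rearranged antigen receptor on their surface.

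Kept after filtering were 9741 cells of CD163_NC (median 6038 transcript counts, as unique molecular identifiers or UMIs, per cell) and 13734 cells of CD163_FL (median 6463 UMIs). T cells were cells with at least 1 UMI of Cd3e plus Cd3g, which encode chains of the receptor's signalling complex, and numbered 3953 and 7416. The type 17 set had a UMI of Il17a, the cytokine, or Il23r, a subunit of the interleukin 23 receptor, and none of Xcl1 or Klrd1; it held 193 cells of CD163_NC and 374 of CD163_FL, with medians of 6813 and 6550 UMIs. The Xcl1 or Klrd1 set had a UMI of Xcl1, a chemokine of cytotoxic lymphocytes, or Klrd1, a natural killer receptor chain, and neither gene of the other set. It held 827 and 2531 cells, with medians of 6384 and 8165 UMIs. Cells meeting both gates (11 and 61) were kept apart. None of the gates used a gamma or delta receptor gene. Of all kept barcodes, 38 sequences occurred in both libraries.

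The sequences below show why some members can be told apart in short reads and others less surely. They were read from GENCODE mouse vM21 transcripts and are placed on the GRCm38 (mm10) build. First is the coding part of the last exon of each gamma constant gene: Tcrg-C1 at chr13:19216476-19216615 (plus strand), Tcrg-C2 at chr13:19305063-19305202 (minus strand) and Tcrg-C4 at chr13:19352201-19352340 (plus strand). It is not the very end of the transcripts, since 409, 414 and 416 untranslated bases follow it. Capitals mark, in Tcrg-C1, the bases that differ from either of the others and, in Tcrg-C2 and Tcrg-C4, the bases that differ from Tcrg-C1.
Tcrg-C1: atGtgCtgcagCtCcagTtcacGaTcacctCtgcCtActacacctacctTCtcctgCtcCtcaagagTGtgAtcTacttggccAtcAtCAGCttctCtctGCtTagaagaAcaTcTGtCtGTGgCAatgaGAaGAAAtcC
Tcrg-C2: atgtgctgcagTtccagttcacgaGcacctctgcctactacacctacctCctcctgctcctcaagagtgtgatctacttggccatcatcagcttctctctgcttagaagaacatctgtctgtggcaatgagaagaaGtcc
Tcrg-C4: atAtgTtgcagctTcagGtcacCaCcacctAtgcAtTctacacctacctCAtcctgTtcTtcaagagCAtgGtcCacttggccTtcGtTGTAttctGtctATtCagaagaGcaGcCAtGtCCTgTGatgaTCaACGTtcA

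In this exon Tcrg-C1 and Tcrg-C2 were identical at 136 of 140 bases (97.1%), and Tcrg-C1 and Tcrg-C4 at 96 of 140 (68.6%). Over whole transcripts, 26.5% of the 60-base stretches of Tcrg-C1 and 18.1% of those of Tcrg-C2 also occur in another gene, in both cases the paralogs of the same locus, against 0 of 926 stretches of Tcrg-C4. Of the last 300 stretches of each transcript, 52 of Tcrg-C1, 51 of Tcrg-C2 and 0 of Tcrg-C4 were shared. The split of counts between Tcrg-C1 and Tcrg-C2 is therefore uncertain where reads fall in such stretches. Tcrg-C4 has no such stretch in common with another transcript.

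The last 60 bases of the variable segments are shown next, since they carry the end that joins to the rest of the receptor: Trdv4 at chr14:54075456-54075515 (plus strand), Tcrg-V6 at chr13:19190870-19190929 (plus strand), Trgv2 at chr13:19336573-19336632 (minus strand), and Tcrg-V1, which is not among the 7 but resembles Trgv2, at chr13:19340395-19340454 (plus strand). Capitals mark the last in-frame tyrosine and cysteine codons, the conserved end of a variable segment.
Trdv4: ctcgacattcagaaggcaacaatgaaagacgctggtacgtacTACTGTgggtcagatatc
Tcrg-V6: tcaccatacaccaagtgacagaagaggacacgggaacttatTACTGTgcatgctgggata
Trgv2: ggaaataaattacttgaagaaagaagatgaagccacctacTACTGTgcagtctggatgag
Tcrg-V1: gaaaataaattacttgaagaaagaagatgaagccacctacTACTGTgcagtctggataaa

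Trdv4 and Tcrg-V6 share no 60-base stretch with another transcript (0 of 385 and 0 of 317), whereas Trgv2 shares 3.47% and Tcrg-V1 19.0% of theirs with each other or with Tcrg-V3. Along chromosome 13 the nearest constant gene downstream on the same strand differs between these gamma segments. Tcrg-V6 (chr13:19190356-19190929) precedes Tcrg-C1 (chr13:19214103-19217024), Trgv2 (chr13:19336573-19337167, minus strand) precedes Tcrg-C2 (chr13:19304649-19307551, minus strand), and Tcrg-V1 (chr13:19339989-19340454) precedes Tcrg-C4 (chr13:19344558-19352756). Trdc (chr14:54142851-54148868, plus strand, 4 exons) has 3407 untranslated bases in a transcript of 3865, and Trdv5 overlaps its last bases on the opposite strand. Trdv5 had 0 UMIs in CD163_NC and 1 in CD163_FL.

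Trdc, the constant part of every delta chain, was found in both T cell sets and at a higher level in the type 17 set of both libraries. CD163_NC had 224 Trdc UMIs in the type 17 set, in 25 of 193 cells (13.0%, interval 8.56% to 18.5%), and CD163_FL had 571 in 70 of 374 cells (18.7%, 14.9% to 23.0%). For the Xcl1 or Klrd1 set, CD163_NC had 345 UMIs in 71 of 827 cells (8.59%, 6.77% to 10.7%) and CD163_FL had 469 in 126 of 2531 cells (4.98%, 4.16% to 5.90%). The type 17 set was the higher of the pair in both libraries, and the share intervals of the sets overlapped in CD163_NC and not in CD163_FL.

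As a pooled level, the count per 1000000 UMIs of the set (CPM), Trdc stood at 128 CPM in the type 17 set against 48.2 CPM in the Xcl1 or Klrd1 set of CD163_NC, a ratio of 2.66 (log2 1.41, interval 1.16 to 1.66). In CD163_FL it stood at 183 against 18.7 CPM, a ratio of 9.75 (log2 3.29, 3.11 to 3.46). Counts were concentrated in few cells, with up to 30 Trdc UMIs in 1 cell of the type 17 set of CD163_NC, so these intervals are narrower than the spread between cells would give.

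Depth and free RNA bear on the shares. After every cell was thinned to 1000 UMIs, Trdc was found in 8.81% and 12.3% of the type 17 set and in 3.40% and 1.66% of the Xcl1 or Klrd1 set, for CD163_NC and CD163_FL, so the order of the sets was the same. In cells that should lack Trdc, the shares before thinning were 0.309% and 0.330% in B cell-like cells (median 4963.5 and 3960 UMIs), 0.224% and 0.958% in plasma cell-like cells (16716 and 16250 UMIs), and 0.515% and 0.405% in a myeloid cluster led by Cd14, Clec4e and Cxcl2 (6985 and 5731 UMIs). T cells outside both gates had Trdc in 1.75% and 1.64%. Both gated sets were above all of these. The natural killer or type 1 gate described below, which had no Cd3e or Cd3g UMI, had Trdc in 10.3% and 12.0%. Thinned, it had 4.41% and 3.83%. Its shares were thus above those of the Xcl1 or Klrd1 set and below those of the type 17 set. Before thinning its intervals overlapped those of the type 17 set in both libraries, and those of the Xcl1 or Klrd1 set in CD163_NC only.

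Trdv4, a delta variable segment, separated the T cell sets more widely than Trdc did. It gave in the type 17 set 70 UMIs in 20 of 193 cells of CD163_NC (10.4%, 6.45% to 15.6%) and 105 UMIs in 46 of 374 cells of CD163_FL (12.3%, 9.15% to 16.1%). It gave in the Xcl1 or Klrd1 set 9 UMIs in 6 of 827 cells (0.726%) and 15 UMIs in 10 of 2531 cells (0.395%), close to the 0.856% and 0.629% of T cells outside both gates. The B cell-like background was 0.103% and 0.0824%, and the thinned shares were 4.15% and 3.74% in the type 17 set against 0.122% and 0.0791% in the other.

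The pooled Trdv4 level was 40.0 CPM against 1.26 CPM in CD163_NC, a ratio of 31.8 (log2 4.99, 3.99 to 6.18), and 33.6 against 0.599 CPM in CD163_FL, a ratio of 56.1 (log2 5.81, 5.02 to 6.70). The size of these ratios rests on few UMIs in the Xcl1 or Klrd1 set: with called doublets kept, that set of CD163_FL had 41 Trdv4 UMIs and the log2 ratio was 4.39, and with 2 or more UMIs asked of the gate genes the ratio of CD163_NC was 6.77, on 56 against 2 UMIs. Of the UMIs that fell on any delta variable segment in the type 17 set, Trdv4 had 70 of 70 in CD163_NC and 105 of 110 in CD163_FL. Its part in the Xcl1 or Klrd1 set was 9 of 16 and 15 of 43, where Trdv1 had 2 and 23 and Trdv2-2 had 5 and 4. The delta segments of that set were thus thinly covered, with 16 UMIs in 827 cells and 43 in 2531.

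**Figure D1:**
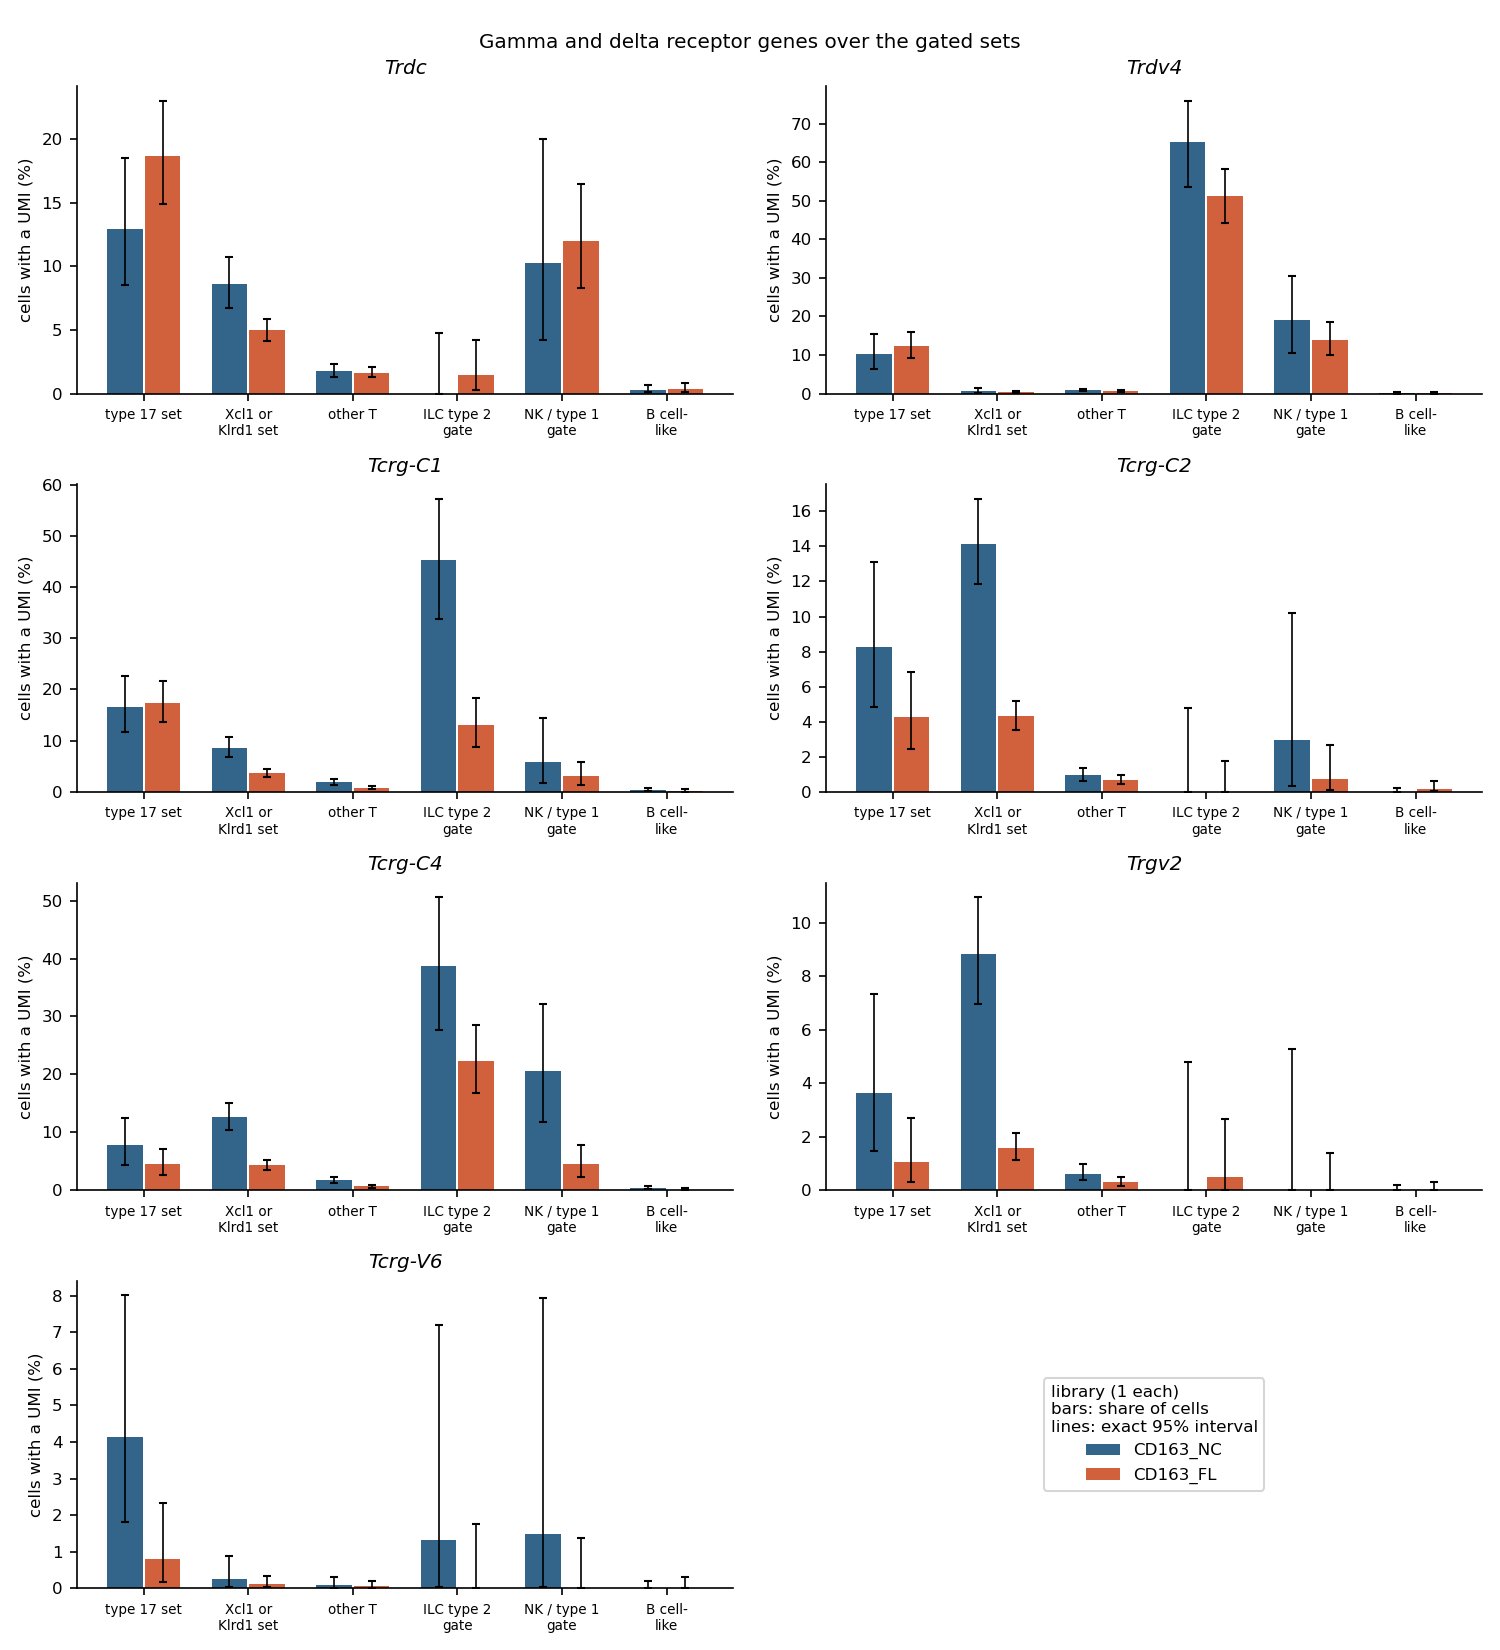
Share of cells with a UMI (%) of each of the 7 genes in the gated sets and in B cell-like cells; bars are the 2 libraries (CD163_NC blue, CD163_FL orange) and lines exact 95% binomial intervals. Among the sets plotted, Trdc is highest in the type 17 set, at 13.0% and 18.7%, and Trdv4 is highest in the type 2 innate lymphoid gate, at 65.3% and 51.2%.

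The 3 gamma constant genes differed in how they divided between the T cell sets. Tcrg-C1 follows Tcrg-V6 in the locus, and Tcrg-V7, Tcrg-V4 and Tcrg-V5 stand before it in the gene list too. It had 66 UMIs in 16.6% of the type 17 set and 163 UMIs in 8.59% of the Xcl1 or Klrd1 set of CD163_NC. In CD163_FL it had 114 UMIs in 17.4% and 148 UMIs in 3.67% of these sets. As levels these were 37.8 against 22.8 CPM (log2 ratio 0.73, 0.29 to 1.15) and 36.4 against 5.91 CPM (2.63, 2.26 to 2.99). Tcrg-C1 was therefore higher in the type 17 set of both libraries, by less than 2-fold in CD163_NC and by 6.17-fold in CD163_FL.

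Tcrg-C2, which follows Trgv2, lay the other way in CD163_NC. It had 20 UMIs in 8.29% of the type 17 set and 250 in 14.1% of the Xcl1 or Klrd1 set of CD163_NC, which is 11.4 against 35.0 CPM (log2 ratio -1.61, -2.35 to -0.95). In CD163_FL it had 16 UMIs in 4.28% and 176 in 4.31%, or 5.12 against 7.03 CPM (-0.46, -1.30 to 0.28), an interval that takes in no difference.

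Tcrg-C4, which follows Tcrg-V1, had 24 UMIs in 7.77% of the type 17 set and 191 in 12.6% of the Xcl1 or Klrd1 set of CD163_NC, or 13.7 against 26.7 CPM (log2 ratio -0.96, -1.64 to -0.34). In CD163_FL it had 23 UMIs in 4.55% and 197 in 4.31%, or 7.35 against 7.86 CPM (-0.10, -0.79 to 0.53). In B cell-like cells the shares of the 3 genes were at most 0.309%.

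The gamma variable segments gave few UMIs. Tcrg-V6, the segment known from interleukin 17 producing cells, had 24 UMIs in the whole of CD163_NC and 11 in the whole of CD163_FL. Of these, 9 UMIs in 8 cells (4.15% of the set) and 3 UMIs in 3 cells (0.802%) were in the type 17 set, and 2 and 3 UMIs were in the larger Xcl1 or Klrd1 set. That is under the 20 UMIs set here as the least for a ratio, so no ratio was read for Tcrg-V6.

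Trgv2 had 9 UMIs in 3.63% of the type 17 set and 116 UMIs in 8.83% of the Xcl1 or Klrd1 set of CD163_NC, or 5.15 against 16.2 CPM (log2 ratio -1.66, -2.82 to -0.68). In CD163_FL it had 4 UMIs in 1.07% and 49 in 1.58%, or 1.28 against 1.96 CPM (-0.61, -2.54 to 0.83). Tcrg-V1 had 0 UMIs in the type 17 set of both libraries, which allows up to 1.72 CPM in CD163_NC and 0.959 CPM in CD163_FL, and 37 and 18 UMIs in the Xcl1 or Klrd1 set (5.17 and 0.719 CPM). Of all gamma variable UMIs in the Xcl1 or Klrd1 set, Trgv2 had 65.9% of 176 and 61.3% of 80, and Tcrg-V1 21.0% and 22.5%. Such UMIs numbered 22 and 11 in the type 17 set, of which Tcrg-V6 had 9 and 3 and Trgv2 9 and 4. Tcrg-V7 and Tcrg-V4 had 2 UMIs each there in CD163_NC and 1 each in CD163_FL. In the Xcl1 or Klrd1 set Tcrg-V7 had 4 and 2 UMIs and Tcrg-V4 had 8 and 6.

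Over the 7 members, 6 had at least 20 UMIs over both sets in each library. In CD163_NC 2 of these 6 were higher by 2-fold or more in the type 17 set (Trdc and Trdv4) and 2 were lower (Tcrg-C2 and Trgv2), where 4.89% of the 11476 genes measured were higher and 10.5% lower by that fold. In CD163_FL 3 were higher (Trdc, Trdv4 and Tcrg-C1) and 0 lower, where 9.92% of 12953 genes were higher and 7.05% lower. The median log2 ratio of all measured genes was -0.15 in CD163_NC and -0.10 in CD163_FL, and of the members -0.12 and 1.26.

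Other genes of these cells were counted by lists chosen with earlier results of these data known. Of all measured genes, 4.89% were higher and 10.5% lower by 2-fold or more in the type 17 set of CD163_NC. In CD163_FL these shares were 9.92% and 7.05%. Of the genes known from interleukin 17 type gamma delta T cells, 26 of 27 measured were higher by 2-fold or more in the type 17 set of CD163_NC and 21 of 26 in CD163_FL, with medians of 2.32 and 2.78 on the log2 scale; the counts include Il17a and Il23r, which the gate used. Among the most abundant were Rora, a nuclear receptor (log2 ratio 2.06 and 1.86), Maf, a transcription factor (2.32 and 2.30), Il18r1, an interleukin 18 receptor chain (1.54 and 0.97), and the chemokine receptors Cxcr6 (1.21 and 0.62) and Ccr2 (1.06 and 0.29). S100a4, a calcium-binding protein, had 1.03 and -0.00. Sox4, a transcription factor, was the 1 lower gene in each library, at -3.43 with 1 UMI against 44 and -2.04 with 2 against 66. The interleukin 1 receptor Il1r1 (5.78 and 6.77), the scavenger receptor Cd163l1 (4.66 and 5.03) and the kinase Blk (1.65 and 6.07) were named after their values were seen.

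Of the intraepithelial and cytotoxic genes, 24 of 28 were lower by 2-fold or more in the type 17 set of CD163_NC and 20 of 28 in CD163_FL, with medians of -2.81 and -1.90 and with Xcl1 and Klrd1, used by the gate, among them. Of all measured genes 10.5% and 7.05% were lower by that fold. Ccl5, a chemokine, had log2 ratios of -2.88 and -2.60, and the granzymes Gzma and Gzmb -3.84 and -4.71, and -1.49 and -1.48. The granule protein gene Nkg7 had -2.72 and -1.92, and Klrc1, the partner of Klrd1, -2.75 and -1.32. Ikzf2, a transcription factor, stayed within 2-fold at -0.98 and -0.81.

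Among the 16 genes that work with a T cell receptor, the alpha and beta constant genes differed little between the sets. Trac had log2 ratios of 0.10 and -0.24, Trbc1 -0.36 and -0.72, and Trbc2 -0.44 and -0.77, and the signalling chains Cd3d (-0.43 and -0.60) and Cd247 (0.58 and 0.37) and the adaptor Lat (-0.17 and -0.40) were also within 2-fold. In each library 12 of 16 were within 2-fold. The co-receptor Cd4 was higher (1.85 and 1.63), and Cd8a (-3.89 and -3.76), Cd8b1 (-3.83 and -3.44) and the pre-T alpha chain Ptcra (-2.36 and -2.64, 1 UMI against 21 and 1 against 50) were lower in the type 17 set.

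**Figure D2:**
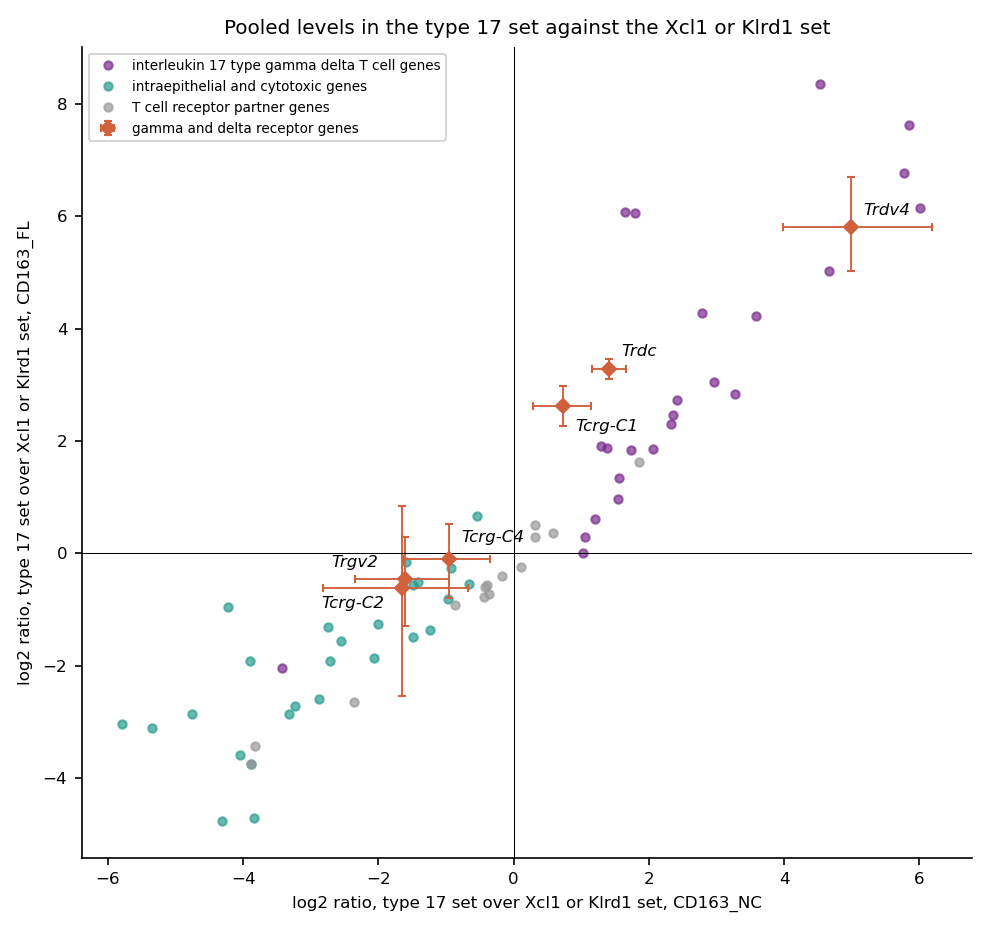
Log2 ratio of pooled levels in the type 17 set over the Xcl1 or Klrd1 set, CD163_NC on the x axis and CD163_FL on the y axis; orange diamonds are receptor genes with exact 95% intervals and dots are listed genes with at least 20 UMIs in both comparisons, without the gate genes. Trdv4 lies at 4.99 and 5.81 among the interleukin 17 type genes (purple). Tcrg-C2, Tcrg-C4 and Trgv2 lie below 0 on both axes, with intervals that take in 0 in CD163_FL.

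RNA of other cell types was present in these sets and moved with them. All of the 10 markers of other types had UMIs in the gated T cell sets, except Col3a1, a fibroblast collagen, which was at 0 in the type 17 set of CD163_NC. Their summed level was 10016 CPM in the type 17 set against 5611 CPM in the other set of CD163_NC, and 3131 against 1673 CPM in CD163_FL, most of it Jchain, a plasma cell gene. Without Jchain it was 209 against 1066 CPM and 229 against 77.6 CPM. Without cells that held at least 2 UMIs of B cell, myeloid or epithelial markers, the log2 ratio of Trdc was 1.15 in CD163_NC and 3.49 in CD163_FL.

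Cells were next split by whether a Trdc UMI was found, which asks what else a barcode with such a UMI carried. In the type 17 set of CD163_NC, Trdv4 was found in 18 of 25 Trdc-positive cells (72.0%, 50.6% to 87.9%) and in 2 of 168 Trdc-negative cells (1.19%). In CD163_FL the counts were 41 of 70 (58.6%, 46.2% to 70.2%) and 5 of 304 (1.64%). Trdv4 was found in the Xcl1 or Klrd1 set in 3 of 71 (4.23%) and 4 of 126 (3.17%) Trdc-positive cells. The Trdc-positive cells of the sets had median depths of 5983 and 5742 UMIs in the type 17 set and 6519 and 8005 in the other, so the set with more Trdv4 was the shallower one.

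The gamma constant genes were concentrated in the same cells. Tcrg-C1 was found, in the type 17 set, in 64.0% and 58.6% of Trdc-positive cells against 9.52% and 7.89% of Trdc-negative cells, Tcrg-C2 in 32.0% and 17.1% against 4.76% and 1.32%, and Tcrg-C4 in 44.0% and 14.3% against 2.38% and 2.30%. At least 1 of the 3 was found in 20 of 25 Trdc-positive cells (80.0%) of CD163_NC and 47 of 70 (67.1%) of CD163_FL. Of these cells 14 and 13 had UMIs of more than 1 constant gene, so that detection did not assign a single constant gene to a cell.

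In the Xcl1 or Klrd1 set, Tcrg-C1 was found in 49.3% and 26.2% of Trdc-positive cells, Tcrg-C2 in 36.6% and 15.9%, and Tcrg-C4 in 50.7% and 24.6%. At least 1 constant gene was found in 51 of 71 (71.8%) and 53 of 126 (42.1%), and more than 1 in 34 and 22 cells. Gamma constant transcripts also occurred without Trdc, in 131 of 756 Trdc-negative cells (17.3%) of CD163_NC and 178 of 2405 (7.40%) of CD163_FL. Of those cells 44 and 56 had Tcrg-C2 alone, and 639 of the 756 and 2100 of the 2405 held both Trac and a beta constant gene.

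The variable segments sorted in the same way. Tcrg-V6 was found in the type 17 set in 8 of 25 Trdc-positive cells (32.0%) of CD163_NC and 2 of 70 (2.86%) of CD163_FL, against 0 of 168 and 1 of 304 Trdc-negative cells. Its count in the Xcl1 or Klrd1 set was 0 of 71 and 1 of 126 Trdc-positive cells. Tcrg-V1 was found in 0 of 25 and 0 of 70 Trdc-positive cells of the type 17 set, and in 12 of 71 (16.9%) and 7 of 126 (5.56%) of the Xcl1 or Klrd1 set. Trgv2 was found in 24.0% and 2.86% of the first and in 23.9% and 6.35% of the second.

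Trac, the alpha constant gene, was found in a smaller share of Trdc-positive than of Trdc-negative cells, and the beta constant gene Trbc2 in shares with overlapping intervals. Trac was found in the type 17 set in 28.0% and 34.3% of Trdc-positive against 89.3% and 77.0% of Trdc-negative cells, and Cd4 in 12.0% and 7.14% against 64.3% and 54.9%. In the Xcl1 or Klrd1 set Trac was found in 54.9% and 48.4% against 86.9% and 88.4%, and Cd8b1, the CD8 beta chain, in 11.3% and 22.2% against 54.6% and 61.4%. Trbc2 was found in 92.0% and 72.9% of Trdc-positive against 85.1% and 81.6% of Trdc-negative cells of the type 17 set, and in 87.3% and 87.3% against 89.7% and 93.3% of those of the Xcl1 or Klrd1 set. Both Trac and a beta constant gene were found in 24.0% and 34.3%, and in 50.7% and 47.6%, of the Trdc-positive cells. A barcode with a Trdc UMI thus often held alpha beta transcripts as well. Doublets were called at 2.62% and 4.29% of barcodes, against 8.31% and 12.2% expected, so some of these barcodes may hold more than 1 cell, and the part of doublets in these shares was not tested.

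**Figure D3:**
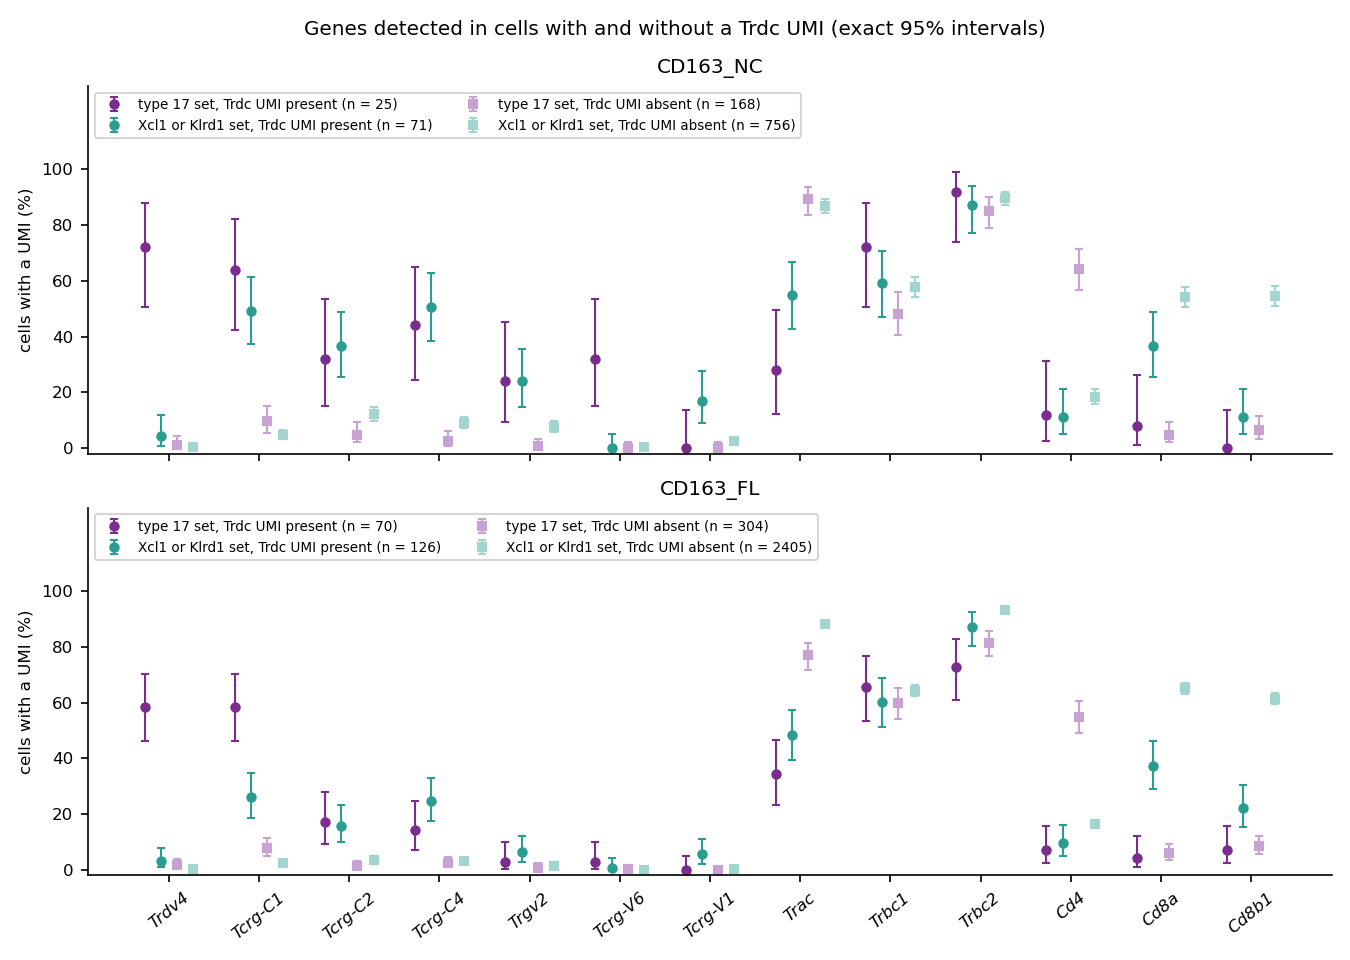
Share of cells with a UMI (%) of each gene on the x axis, in Trdc-positive cells (circles) and Trdc-negative cells (squares) of the type 17 set (purple) and the Xcl1 or Klrd1 set (green), with exact 95% binomial intervals, CD163_NC above and CD163_FL below. Trdv4 stands at 72.0% and 58.6% in Trdc-positive cells of the type 17 set and at 4.23% and 3.17% in those of the other set, and Trac is lower in Trdc-positive than in Trdc-negative cells of both sets.

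Among Trdc-positive cells alone the sets could be compared without the share of cells with a Trdc UMI. The Trdv4 level was 307 against 6.18 CPM in CD163_NC (log2 ratio 5.63, 4.21 to 7.55) and 202 against 5.91 CPM in CD163_FL (5.10, 4.0 to 6.45). Tcrg-C1 was at 204 against 164 CPM (0.32, -0.22 to 0.84) and at 164 against 58.3 CPM (1.49, 1.00 to 1.98), and Tcrg-C2 at 41.8 against 114 CPM (-1.45, -2.64 to -0.45) and at 25.5 against 30.4 CPM (-0.25, -1.33 to 0.72). Trdc itself, which chose the cells, was at 1041 against 533 CPM and 1215 against 396 CPM. In these cells 19 of 19 measured genes of the interleukin 17 type list were higher by 2-fold or more in the type 17 set of CD163_NC and 18 of 19 in CD163_FL, and 22 of 25 and 26 of 28 of the intraepithelial and cytotoxic genes were lower, gate genes included. Of all genes measured in these cells, 6.65% were higher and 18.2% lower in CD163_NC, and 7.01% and 16.5% in CD163_FL, with median log2 ratios of -0.28 and -0.27. These cells were chosen for comparison after the data had been seen.

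Across all T cells, each of the 3 gamma variable segments examined was found most often beside the constant gene that follows it in the locus. Of the 101 Trgv2-positive cells of CD163_NC, 60 had Tcrg-C2 (59.4%, against 2.65% of cells without Trgv2), 48 had Tcrg-C4 and 38 had Tcrg-C1, and in the 58 of CD163_FL the counts were 25 (43.1%, against 1.81%), 16 and 19. Of the 38 Tcrg-V1-positive cells of CD163_NC, 24 had Tcrg-C4 (63.2%), 20 Tcrg-C2 and 13 Tcrg-C1, and of the 16 of CD163_FL, 9, 6 and 7. Of the 17 Tcrg-V6-positive cells of CD163_NC, 11 had Tcrg-C1 (64.7%), 9 Tcrg-C4 and 2 Tcrg-C2, and of the 10 of CD163_FL, 3, 0 and 0. The shares of the first and the next constant gene have overlapping intervals for each of the 3 segments, and Trgv2 and Tcrg-V1 share sequence, and 15 cells of CD163_NC and 1 of CD163_FL had both.

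The segments also differed in the delta chain and the alpha beta genes found with them in all T cells. Of the 17 Tcrg-V6-positive cells of CD163_NC, 13 had Trdc (76.5%) and 13 had Trdv4, and 6 had Trac, whereas of the 10 of CD163_FL, 3 had Trdc, 1 had Trdv4 and 5 had Trac. Of the Trgv2-positive cells, 32 of 101 (31.7%) and 12 of 58 (20.7%) had Trdc, and 77 (76.2%) and 45 (77.6%) had Trac. Of the Trdv4-positive T cells, 29 of 55 (52.7%) and 48 of 87 (55.2%) had Trdc, and 15 (27.3%) and 30 (34.5%) had Trac. Trgv2 was thus mostly read in cells that also had Trac, and Trdv4 mostly in cells without a Trac UMI.

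Innate lymphoid cells, which should hold no T cell receptor, were gated by the absence of Cd3e, Cd3d and Cd3g and of markers of B cells, myeloid cells, mast cells and epithelium. The type 2 gate asked for Il7r and Gata3 with Il1rl1 or Il17rb, receptors for interleukin 33 and interleukin 25, and held 75 cells of CD163_NC and 207 of CD163_FL (median 6057 and 4649 UMIs). Its cells also had Areg, a growth factor of type 2 innate lymphoid cells, in 70.7% and 71.5%, and the cytokine Il5 in 32.0% and 39.1%. In this gate Trdv4 was found in 49 of 75 cells (65.3%, 53.5% to 76.0%) and 106 of 207 cells (51.2%, 44.2% to 58.2%), with 135 and 198 UMIs (266 and 186 CPM). Thinned to 1000 UMIs the shares were 21.3% and 16.0%.

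The delta constant gene was nearly missing from the same cells. Trdc had 0 UMIs in the 75 cells of CD163_NC, which allows a share of up to 4.0%, and was found in 3 of 207 cells of CD163_FL (1.45%, 0.300% to 4.18%). Of all delta variable UMIs in the type 2 gate, Trdv4 had 135 of 135 and 198 of 199. Tcrg-C1 was found in 45.3% and 13.0% of the cells (140 and 30.1 CPM) and Tcrg-C4 in 38.7% and 22.2% (90.5 and 55.5 CPM), whereas Tcrg-C2 had 0 UMIs in both libraries, which allows a share of up to 4.0% and 1.45%. Both libraries thus had Trdv4, Tcrg-C1 and Tcrg-C4 and not Tcrg-C2 or, but for 3 cells, Trdc. Whether intronic reads were counted was not given in the sources used here, so these UMIs cannot be read as transcripts of a rearranged receptor. The same limit holds for the Trdv4, Tcrg-C1 and Tcrg-C4 UMIs of the T cell sets, which come from the same libraries.

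Within the type 2 gate, cells with and without Trdv4 had Tcrg-C1 at shares with overlapping intervals. Tcrg-C1 was found in 23 of 49 Trdv4-positive and 11 of 26 Trdv4-negative cells of CD163_NC, and in 13 of 106 and 14 of 101 of CD163_FL. Tcrg-C1 and Tcrg-C4 occurred together in 10 and 8 cells. Gamma variable segments had 1 UMI in all cells of the gate in CD163_NC and 5 in CD163_FL. Trac was found in 6.67% and 12.1% of the gate, while the beta constant genes Trbc1 (68.0% and 70.0%) and Trbc2 (60% and 57.5%) were found in most cells. Of 10 markers of other cell types, 4 and 5 had UMIs here, with a summed level of 653 and 528 CPM, and Cd79a, Ms4a1, Lyz2, Csf1r and Epcam were at 0 because the gate removed them.

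Transcripts of both delta genes were found in natural killer and type 1 innate lymphoid cells. The natural killer or type 1 gate (68 and 267 cells, with Ncr1, Eomes or Klrb1c) had Trdc in 7 cells (10.3%, 4.24% to 20.1%) and 32 cells (12.0%, 8.34% to 16.5%), at 36 and 34.5 CPM, and Trdv4 in 19.1% and 13.9%. At least 1 gamma constant gene was found in 0 of these 7 and 2 of these 32 Trdc-positive cells, and the thinned Trdc shares were 4.41% and 3.83%.

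Levels over all cell classes were taken from 27 clusters of both libraries that were made without any T cell receptor or immunoglobulin gene. A class led by Il23r, Zbtb16 and Il17a was gamma delta T cell-like by its markers, but most of its 212 and 557 cells carried alpha beta transcripts, with Trac in 77.8% and 66.6%, Trbc2 in 84.4% and 72.0%, and Trdc in 17% and 15.8%. It is called the Il23r-led class here. Trdc was highest in the Il23r-led class, at 216 CPM (193 to 242) in CD163_NC and 220 CPM (204 to 237) in CD163_FL, followed by intraepithelial-like T cells at 131 and 89.1 CPM and by the class of natural killer and type 1 innate lymphoid-like cells at 46.5 and 37.3 CPM. The last of these classes had the cytokine gene Il22 as its first leading gene. Il22 was found in only 1.47% and 0.375% of the natural killer or type 1 gate. Of the 123 and 407 cells of this class, 55 and 224 were in that gate, so the class was not that gate alone. CD8 T cell-like cells had 30.2 and 4.32 CPM. B cell-like and plasma cell-like cells had at most 0.843 CPM. The order of the first 3 classes was the same in the libraries and their Poisson intervals did not overlap.

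Trdv4 was highest in the type 2 innate lymphoid cell-like class, at 197 CPM (176 to 221) and 178 CPM (162 to 195). Next were the Il22-led natural killer or type 1 class (73.1 and 37.3 CPM) and the Il23r-led class (55.7 and 35.6 CPM), whose intervals overlap. Intraepithelial-like T cells had 0.637 and 0.451 CPM. Tcrg-C2 and Trgv2 were highest in intraepithelial-like T cells, at 94.3 and 31.1 CPM and at 42.7 and 10.4 CPM, against 15.9 and 6.15 CPM and 9.41 and 1.29 CPM in the Il23r-led class. Tcrg-C1 was highest in the type 2 class of CD163_NC (151 CPM) and in the Il23r-led class of CD163_FL (44.6 CPM, 37.5 to 52.7), where the type 2 class was next (30.4 CPM, 24.1 to 37.9), so its order differed between libraries. Tcrg-C4 stood at 106 and 49.3 CPM in the type 2 class and 102 and 38.6 CPM in intraepithelial-like T cells, with overlapping intervals. Tcrg-V6 had 13 and 4 UMIs in the Il23r-led class (9.41 and 1.29 CPM), more than in any other class of either library, although 1 UMI in the few fibroblast-like cells of CD163_FL gave 1.74 CPM.

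The gated sets mapped onto these classes unevenly. Of the Trdc-positive cells of the type 17 set, 22 of 25 (88.0%) and 65 of 70 (92.9%) were in the Il23r-led class, against 51.3% and 56.1% of the whole set. Of those of the Xcl1 or Klrd1 set, 38 of 71 (53.5%) and 82 of 126 (65.1%) were in the intraepithelial-like class, against 23.1% and 18% of that set. In CD163_FL 10 of the 126 (7.94%) were in the class of natural killer and type 1 innate lymphoid-like cells. The type 2 innate lymphoid cell-like class held 20 of the 374 cells (5.35%) of the type 17 set of CD163_FL. The part of these 20 cells in the Trdv4 and Tcrg-C1 levels of the set was not tested.

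**Figure D4:**
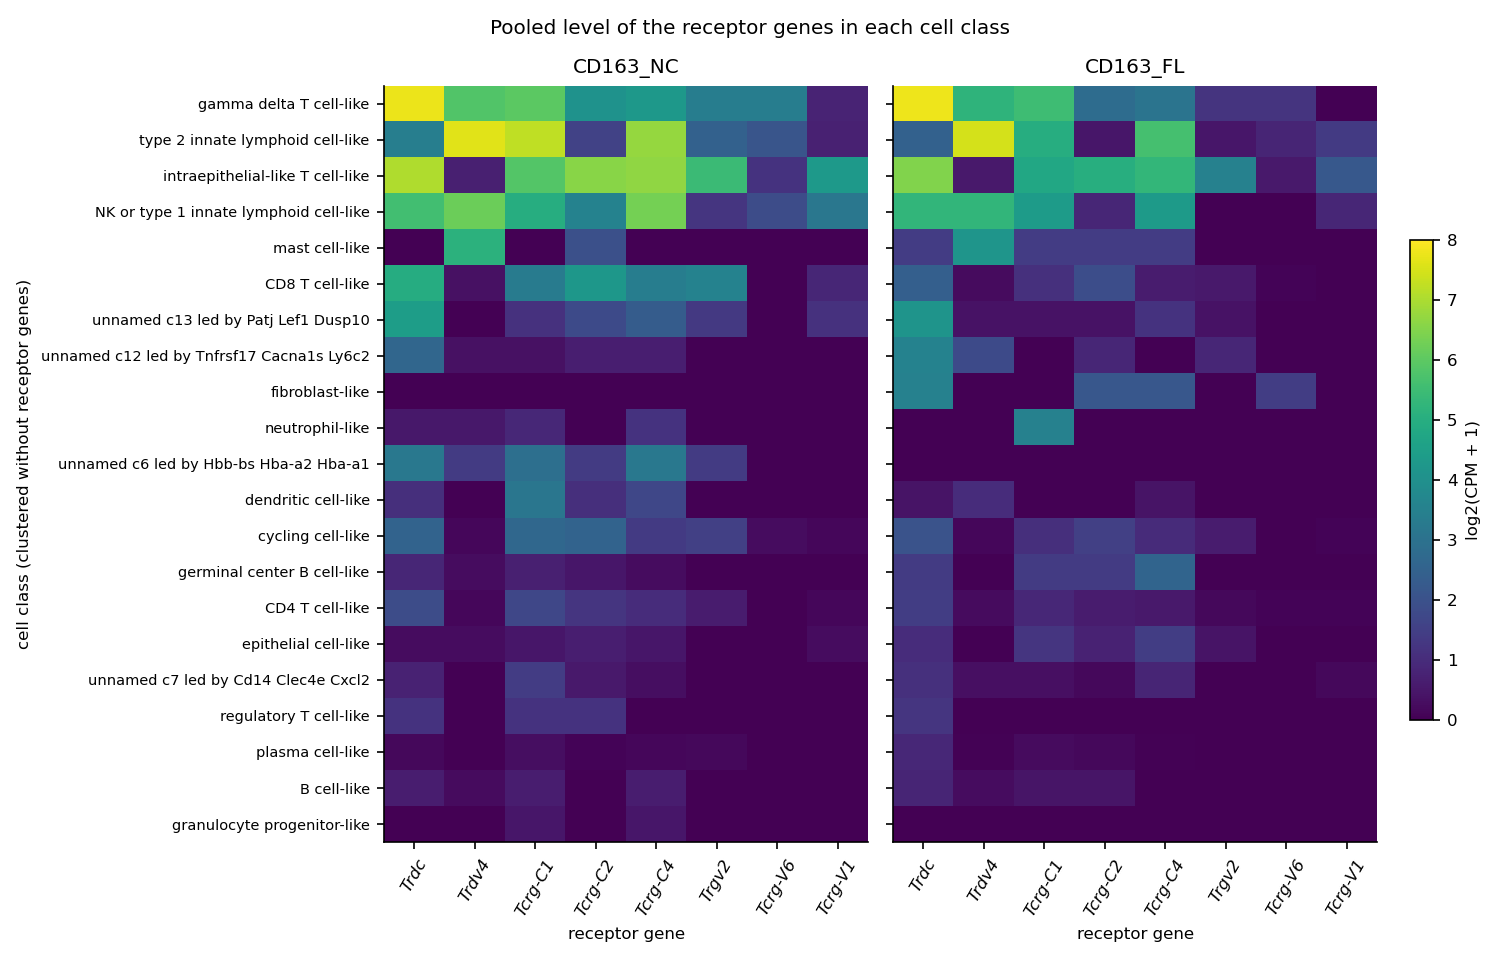
Pooled level of the receptor genes, as log2(CPM + 1) on the colour scale, in each cell class (rows) for CD163_NC (left) and CD163_FL (right); classes were clustered without receptor genes. Trdc is brightest in the row named gamma delta T cell-like, the Il23r-led class (216 and 220 CPM) and Trdv4 in the type 2 innate lymphoid cell-like row (197 and 178 CPM).

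The genes whose levels over classes were most like those of Trdc, Tcrg-C1 and Tcrg-V6 were ranked by the lower of their Pearson correlations in the libraries, over 17 classes and among 11429 genes. The classes share library and depth, and the correlations are descriptions. For Trdc these were Sgtb (r = 0.760 in CD163_NC and 0.777 in CD163_FL), Cage1 (0.847 and 0.744), Dym (0.742 and 0.815), Tcf7, a T cell transcription factor (0.799 and 0.737), and Cd96, a receptor of T and natural killer cells (0.862 and 0.698). For Tcrg-C1 they were Clnk, a signalling adaptor (0.901 and 0.844), Prrt1 (0.763 and 0.767), Cnnm2 (0.872 and 0.751), Hgsnat (0.778 and 0.750) and Rab4a (0.745 and 0.789). For Tcrg-V6, on 24 and 11 UMIs, they were Xkr6 (0.818 and 0.749), the glucocorticoid receptor Nr3c1 (0.713 and 0.718), Hs2st1 (0.692 and 0.697), Zbtb16, a transcription factor of innate-like T cells (0.883 and 0.683), and Hgsnat (0.680 and 0.681).

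Between the libraries, the receptor genes differed more in the Xcl1 or Klrd1 set than in the type 17 set. In the Xcl1 or Klrd1 set all 6 members with at least 20 UMIs were lower by 2-fold or more in CD163_FL, where 12.8% of 13459 genes were lower and 4.58% higher by that fold. Trdc was at 48.2 CPM in CD163_NC and 18.7 CPM in CD163_FL (log2 ratio -1.37, -1.57 to -1.16), Tcrg-C1 at 22.8 and 5.91 CPM (-1.95, -2.28 to -1.62), Tcrg-C2 at 35.0 and 7.03 CPM (-2.31, -2.60 to -2.03) and Tcrg-C4 at 26.7 and 7.86 CPM (-1.76, -2.06 to -1.47). Trgv2 had the lowest ratio of the members, at 16.2 and 1.96 CPM (-3.05, -3.56 to -2.56), and Tcrg-V1 had -2.85 (-3.75 to -2.0). Trdv4, at 9 and 15 UMIs, had -1.07 with an interval of -2.36 to 0.30 that takes in no difference, and with called doublets kept it had 0.28, so that 5 of 6 members were lower. Trac (-0.04), Trbc1 (0.91) and Trbc2 (0.49) stayed within 2-fold, as did all 16 receptor partner genes.

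In the type 17 set the constant and delta genes were closer between libraries. Of 5 measured members 1 was lower by 2-fold or more in CD163_FL and 0 were higher, where 5.13% of 9893 genes were lower and 7.12% higher. Trdc was at 128 and 183 CPM (log2 ratio 0.51, 0.29 to 0.74), Trdv4 at 40.0 and 33.6 CPM (-0.25, -0.70 to 0.20) and Tcrg-C1 at 37.8 and 36.4 CPM (-0.05, -0.50 to 0.41). Tcrg-C2 was the lower gene, at 11.4 and 5.12 CPM (-1.16, -2.21 to -0.14), and Tcrg-C4 had -0.90 (-1.79 to -0.01). The median log2 ratio of all measured genes was 0.11 in this set and -0.04 in the other.

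Among Trdc-positive cells of the Xcl1 or Klrd1 set, where the share of such cells plays no part, Trgv2 had 51.0 CPM in CD163_NC and 7.60 CPM in CD163_FL (log2 ratio -2.75, -4.0 to -1.65), Tcrg-C2 114 and 30.4 CPM (-1.91, -2.53 to -1.32), Tcrg-C1 164 and 58.3 CPM (-1.49, -1.95 to -1.04) and Tcrg-C4 117 and 56.6 CPM (-1.05, -1.55 to -0.56). These 4 of 5 measured members were lower by 2-fold or more, where 6.79% of all genes measured in these cells were lower and 7.82% higher. Trdc, which chose the cells, had -0.43. The make-up of these cells was not held fixed. The intraepithelial-like class held 53.5% and 65.1% of them. Both Trac and a beta constant gene were found in 50.7% and 47.6%, and at least 1 gamma constant gene in 71.8% and 42.1%. A Trdc UMI thus did not pick the same kind of cell in both libraries, and the part of this make-up in the ratios was not tested. In the type 17 set Tcrg-C4 was the 1 of 5 that was lower, at 83.6 and 23.4 CPM (-1.84, -3.07 to -0.68), where 6.22% of genes were lower and 15.3% higher. Trdv4 there had 307 and 202 CPM (-0.60, -1.07 to -0.13).

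The Xcl1 or Klrd1 set was not made of the same cells in the libraries. CD8 T cell-like cells made up 39.5% of it in CD163_NC and 47.3% in CD163_FL, cycling cell-like cells 14.8% in CD163_FL, and a cluster led by Patj, Lef1 and Dusp10 11.2% in CD163_NC. The CD8 T cell-like class itself came mostly from cluster c5 in CD163_NC (685 cells, against 30 of cluster c9) and from c9 in CD163_FL (2266, against 267 of c5). In the intraepithelial-like class, a single cluster of 248 and 653 cells, Trdc was at 131 and 89.1 CPM, Tcrg-C2 at 94.3 and 31.1 CPM and Trgv2 at 42.7 and 10.4 CPM. The summed level of the markers of other cell types in the set was 5611 and 1673 CPM. Of these 10 markers 9 were lower by 2-fold or more in CD163_FL, where 12.8% of all measured genes were lower. Without cells holding at least 2 UMIs of B cell, myeloid or epithelial markers the log2 ratio of Trdc was -1.82.

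Other genes of these sets were also compared between the libraries. Of all genes measured in the Xcl1 or Klrd1 set, 12.8% were lower and 4.58% higher by 2-fold or more in CD163_FL. In the type 17 set 5.13% were lower and 7.12% higher. The 2 higher of 28 and the 1 lower of 26 given below were near those shares. In the Xcl1 or Klrd1 set 7 of 28 intraepithelial and cytotoxic genes were lower in CD163_FL and 2 higher, with a median of -0.33, and of the most abundant Ccl5 had -0.27, Gzmb 0.69, Gzma 0.11, Nkg7 0.05, Klrc1 0.93 and Ikzf2 0.08. Of the interleukin 17 type list 6 of 23 were lower and 5 higher, the higher ones being Rora (1.03), S100a4 (1.37), Il18r1 (1.82), Cxcr6 (2.15) and Ccr2 (1.31). In the type 17 set 5 of 26 genes of that list were higher in CD163_FL and 1, the membrane protein gene Tmem176b (-1.08), lower. The 5 were Il17f (1.15), Blk (1.39), Cxcr6 (1.56), Zbtb16 (1.42) and Il18r1 (1.25).

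**Figure D5:**
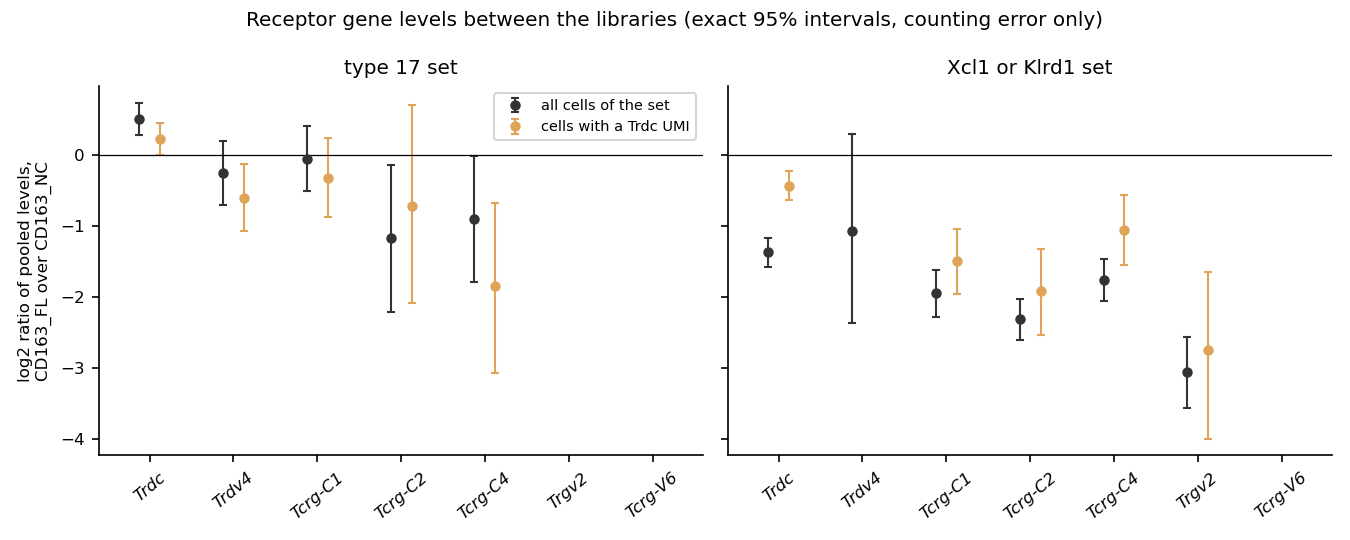
Log2 ratio of pooled levels, CD163_FL over CD163_NC, for the receptor genes in the type 17 set (left) and the Xcl1 or Klrd1 set (right), for all cells of the set (black) and for its Trdc-positive cells (orange), with exact 95% intervals; genes with under 20 UMIs are not plotted. Trdc lies at 0.51 in the type 17 set and at -1.37 in the Xcl1 or Klrd1 set, where every plotted point is below 0.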

How the data were processed

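The deposited values are UMI counts per gene and barcode, not normalized; per the file headers they were written by Cell Ranger 7.1.0. The submitters' processing notes name mm10 and Seurat 4. Not given in the sources used here: whether intronic reads were counted and whether free RNA was corrected. Barcodes needed at least 500 UMIs and 200 genes and at most 10% mitochondrial UMIs. Scrublet called 2.62% and 4.29% of barcodes doublets, under the 8.31% and 12.2% expected, so some remain. Libraries held 94729872 and 131306539 UMIs. The 27 clusters (scanpy 1.11.5, Python 3.11.15; 2000 variable genes, 30 components, 15 neighbours, Leiden resolution 1, no integration) were named from fixed markers, with 0.5 (log2) allowed under the best marker score.

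Shares have Clopper-Pearson intervals, levels Poisson intervals and ratios conditional binomial intervals (scipy 1.17.1). Only the ratios and their intervals were checked on simulated data, with pooled Poisson counts, the model these intervals assume. That check does not cover counts concentrated in few cells. A count of 0 was read as allowing 3 counts. A gene was measured at 20 UMIs over both sets and counted as higher or lower at 2-fold, whatever its interval. Named are the 7 members, other genes of the loci, up to 6 abundant members of 4 lists, and 5 genes of like pattern. The members and lists were chosen with earlier results of these data known. A further innate lymphoid gate is not reported here. Alternatives are in the closing section.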

Additional observations from a re-analysis of the deposited data

Results flagged for a closer look

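The Trdc level differed between the libraries in opposite directions in the T cell sets. The log2 ratio of CD163_FL over CD163_NC was 0.51 in the type 17 set and -1.37 in the Xcl1 or Klrd1 set, with counting intervals on opposite sides of 0. With 1 library per group this difference between the sets was not tested.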

How the results depend on the processing

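The 26 log2 ratios of receptor genes recomputed here include some on under 20 UMIs that are not reported above. These are ratios of Tcrg-V6, and that of Trgv2 between libraries in the type 17 set. For the 26, 8 of 228 alternative values had the other sign. Trdv4 between libraries in the Xcl1 or Klrd1 set (-1.07) turned to 0.39 with stricter gates (2 or more UMIs in the gate genes), 0.28 with doublets kept and 0.38 after thinning. The other 5 belong to ratios whose intervals take in 0: in the type 17 set between libraries, 0.12 for Trdv4 and Tcrg-C1 with stricter gates and 0.02 for Tcrg-C1 without Cd4 or Cd8b1 cells; between the sets of CD163_FL after thinning, 0.76 for Trgv2 and 0.37 for Tcrg-C4. Of the 228 values, 185, with these 5 among them, stayed inside the interval of the reported value and 40 moved outside it. The 3 values of Trdv4 in the Xcl1 or Klrd1 set were counted apart as reversed. A minimum of 2000 UMIs, a limit of 5% mitochondrial UMIs, and clusters in place of the innate gates moved none of the values recomputed with them. The log2 ratio of Trdv4 between the sets was 6.77 with stricter gates in CD163_NC (4.99), and 4.39 with doublets kept and 4.76 after thinning in CD163_FL (5.81). That of Trdc in CD163_NC (1.41) was 1.15 with 2 or more UMIs in the gate genes and without cells with markers of other types, 1.86 after thinning and 0.97 in Trdc-positive cells. In CD163_FL (3.29) it was 3.47, 3.49, 3.83 and 1.62 in the same order, and 2.90 without cells with a Cd4 or Cd8b1 UMI. Between the libraries the Trdc ratio of the type 17 set (0.51) was 0.94 with the stricter gates, 0.28 with doublets kept, 0.86 after thinning and 0.22 in Trdc-positive cells; that of the Xcl1 or Klrd1 set (-1.37) was -1.82 without cells with markers of other types, -1.11 after thinning and -0.43 in Trdc-positive cells. In that set Trgv2 (-3.05) was -2.38 without Cd4 or Cd8b1 cells, and after thinning Tcrg-C1 (-1.95) was -1.25 and Tcrg-C2 (-2.31) -1.62. Members lower in the Xcl1 or Klrd1 set of CD163_FL (6) numbered 5 of 6 with doublets kept. The causes of these moves were not tested.

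Members lower in CD163_FL in the type 17 set (1) numbered 0 with stricter gates and after thinning, and 2 without Cd4 or Cd8b1 cells, with doublets kept, without cells with markers of other types and with median ratio scaling. Members lower in the type 17 set (2 in CD163_NC and 0 in CD163_FL) numbered 1 after thinning in each library, 3 in CD163_NC with stricter gates, and 1 in CD163_FL without Cd4 or Cd8b1 cells. Thinning left fewer members measured: 4 in CD163_NC and 5 in CD163_FL between the sets, against 6 in each before. Between the libraries in the type 17 set it left 3, against 5 before. Trgv2 of CD163_NC had -1.61 after thinning, on 1 against 13 UMIs, and so was not counted. Shares with a Trdc UMI in the type 17 set rose to 28.2% and 33.1% without Cd4 or Cd8b1 cells and, in CD163_FL, to 25.9% with stricter gates. In the Xcl1 or Klrd1 set they were 11.6% and 6.64% with stricter gates and 19.7% and 12.4% without Cd4 or Cd8b1 cells. Thinning gave 12.3% in the type 17 set of CD163_FL, 3.40% and 1.66% in the Xcl1 or Klrd1 set and 3.83% in the natural killer or type 1 gate of CD163_FL, and for Trdv4 21.3% and 16.0% in the type 2 gate. The Trdc-positive alternative was chosen after seeing the data. No paired analysis was possible because each group has 1 library. Depth limits Tcrg-V6, with 24 and 11 UMIs.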

Other observations

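A cluster led by Patj, Lef1 and Dusp10, genes of resting T cells among them, which stayed unnamed, held Trdc without Trdv4. It had 68 Trdc UMIs in 28 of 613 cells of CD163_NC (4.57%, 20.8 CPM) and 52 in 20 of 655 cells of CD163_FL (3.05%, 16.6 CPM). Trdv4 had 0 UMIs there in CD163_NC, which allows up to 0.489% of cells, and 1 in CD163_FL.

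Mast cell-like cells held Trdv4 with next to no other gene of the loci. Trdv4 was found in 10 of 42 cells of CD163_NC (12 UMIs, 34.4 CPM) and 9 of 66 cells of CD163_FL (10 UMIs, 17 CPM). Trdc, Tcrg-C1, Tcrg-C2 and Tcrg-C4 had 0 or 1 UMI each there in either library.

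Cells that met both T cell gates were few and differed between the libraries. Of 11 such cells of CD163_NC, 5 had Trdc and 4 had Tcrg-V6, and of 61 of CD163_FL, 4 and 1 did, at median depths of 12578 and 10366 UMIs.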
